A study of Mus musculus with 2 samples.

Results

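The genes described here encode 10 cytokines and growth factors through which tissue cells and resident leukocytes call in, expand or activate leukocytes: Il1a, Il1b, Il18 and Il33 of the interleukin-1 family, Tnf, Il6, Il15, Tslp, Csf1 and Csf2. They were taken by symbol, and all 10 were found among the 32285 genes counted in both libraries. The study compared uteri of female mice aged 6 months that carried floxed Prickle1 alleles with uteri that carried the same alleles and a Cre recombinase driven from Ltf. These groups are called control (Prickle1 f/f) and cKO (Prickle1 f/f Ltf-cre), as their titles give them, although a genotype entry in the labels gives both as C57BL/6J wild-type. Prickle1 encodes a core component of planar cell polarity, and Ltf, the lactoferrin gene, is transcribed in the uterine epithelium and in neutrophils. The cells that lost Prickle1 were not measured, so the cKO library is a whole uterus in which the deletion is aimed at the epithelium. Uteri of 3 mice were pooled in each group and made into 1 droplet-based single-cell library of transcript 3′ ends. There were therefore no replicates and no test between groups was possible. Intervals in brackets are 95% intervals that cover counting error only.

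As background, the interleukin-1 family members IL-1α and IL-33 are alarmins, stored in barrier and stromal cells and released when these are damaged, whereas IL-1β and IL-18 are made as precursors by myeloid and epithelial cells and cut by inflammasome caspases. TNF and IL-6 are induced in macrophages and fibroblasts through NF-kB and spread inflammation to neighbouring cells. IL-15 is presented on its receptor by dendritic cells and stroma and sustains natural killer cells, which in the uterus belong to the normal leukocyte population, TSLP acts on dendritic cells and type 2 lymphocytes, and CSF1 and CSF2 support macrophages and granulocytes.

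A barcode counted as a cell if it had 500 genes or more and no more than 20% mitochondrial UMIs (unique molecular identifiers, each standing for 1 captured transcript). The control library held 45035801 UMIs and 3653 cells, the cKO library 57145553 UMIs and 4950 cells, and 5 cell barcodes occurred in both. Cells were sorted into 6 classes by a UMI of a gate gene: Epcam for epithelial, Pdgfra for stromal, Actg2 for smooth muscle, C1qa for macrophage, Flt3 for dendritic, and Cd3e or Ncr1 for lymphoid cells. A cell with gate UMIs of more than 1 class entered none. Control and cKO gave 961 and 135 epithelial, 623 and 1464 stromal, 289 and 535 muscle, 228 and 110 macrophage, 42 and 134 dendritic, and 155 and 427 lymphoid cells, with 1185 and 1896 cells in no gate. Levels are given as CPM, the UMIs of a gene per 1000000 UMIs of all cells of the class. Prickle1 was sparse and not lower in cKO epithelial cells (15 UMIs, 0.865 CPM in control and 16 UMIs, 3.93 CPM in cKO). The labels do not say which exon is floxed and 3′ counts need not cover it, so this does not check the group names, which rest on the titles. Of 961 control epithelial cells, 97.4% had UMIs of at least 3 epithelial markers, but of the 135 cKO cells only 62.2%. The other classes had 88.4% to 100%. The cKO epithelial gate also carried 3074 CPM of 7 stromal markers against 271 CPM in control, 1216 against 1.38 CPM of B and plasma cell markers, and 28.5 against 2.83 CPM of 7 lymphoid markers without Il2rb. Mesothelial markers were at 315 against 20.3 CPM, muscle markers at 461 against 35.6 CPM and lymphatic markers at 190 against 11.2 CPM. The part of these other cells in the epithelial values was not tested, and each epithelial difference of a member that was read is also given for cells with at least 3 epithelial markers. Whether this requirement removes the other cells was not tested. Nearly all dendritic cells had a UMI of Ccr7, the chemokine receptor of mature dendritic cells: 41 of 42 in control and 127 of 134 in cKO. For shares of cells with a UMI, each cell was also thinned at random to 1000 UMIs. Of the cells of control and cKO, 954 and 135 epithelial, 613 and 1453 stromal, 240 and 441 muscle, 225 and 109 macrophage, 42 and 134 dendritic and 153 and 424 lymphoid cells were deep enough.

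Start-site sequences bear on 2 pairs of members that were high in the same class: Il6 and Csf1 in stroma, and Il1b and Tnf in macrophages. The 250 bases before the start are shown 5′ to 3′ on the gene's own strand from a table of RefSeq start sites (GRCm38.p6) in which 8 of the 10 members were matched. Capitals mark matches to the NF-kB consensus or to TATAAA.
Il6 (chr5:30012864-30013113, plus strand): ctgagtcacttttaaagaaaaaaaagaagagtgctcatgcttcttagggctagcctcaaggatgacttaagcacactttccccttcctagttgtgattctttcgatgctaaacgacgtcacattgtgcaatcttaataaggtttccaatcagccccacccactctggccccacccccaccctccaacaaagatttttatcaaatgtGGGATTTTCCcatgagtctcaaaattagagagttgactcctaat
Csf1 (chr3:107760470-107760719, minus strand): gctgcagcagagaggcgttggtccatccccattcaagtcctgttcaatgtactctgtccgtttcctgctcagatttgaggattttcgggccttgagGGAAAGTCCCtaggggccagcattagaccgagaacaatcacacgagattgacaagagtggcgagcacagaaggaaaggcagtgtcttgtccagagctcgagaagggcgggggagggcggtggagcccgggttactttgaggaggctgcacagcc
Il1b (chr2:129371140-129371389, minus strand): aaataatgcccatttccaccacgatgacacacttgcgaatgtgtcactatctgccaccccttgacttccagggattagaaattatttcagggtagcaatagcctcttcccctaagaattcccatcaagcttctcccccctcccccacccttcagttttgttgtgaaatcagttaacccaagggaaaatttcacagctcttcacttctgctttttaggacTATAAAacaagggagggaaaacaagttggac
Tnf (chr17:35202008-35202257, minus strand): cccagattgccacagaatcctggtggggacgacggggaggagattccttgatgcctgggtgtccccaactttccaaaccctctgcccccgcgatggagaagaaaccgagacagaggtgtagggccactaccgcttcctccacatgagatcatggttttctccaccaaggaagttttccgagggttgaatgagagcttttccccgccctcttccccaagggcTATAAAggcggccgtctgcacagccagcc
Il6 had an NF-kB match from 44 to 35 bases before the start and Csf1 one from 154 to 145 bases before it on the opposite strand. These were the 2 of 9 member start sites with such a match, and 3.9% of 32851 mouse start sites had one in a window of this length. TATAAA stood at 31 to 26 bases before Il1b and 29 to 24 bases before Tnf, and also near that distance before Il1a (32 to 27) and the second start of Il33 (29 to 24). On either strand, anywhere in the window, 6 of the 9 member start sites held it against 12.4% of all start sites. The AP-1 motif TGANTCA was found before Il1a and Il6 and before 6.75% of all start sites, with both strands searched. These matches describe letters and not occupied sites.

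The 10 genes had different cell sources. Il1a was an epithelial and macrophage transcript, Il1b a dendritic cell and macrophage transcript, Tnf a macrophage transcript, and Csf1 a stromal one in both libraries. Among the 6 classes Il6 was highest in stroma, with dendritic cells overlapping in control, and it was higher still in ungated cells with Cpa3, Il15 was highest in dendritic cells and macrophages, and Il18, Il33, Tslp and Csf2 were sparse everywhere. Between groups, macrophages and stroma of cKO had more of several members, dendritic cells had less Il1b and Il15, and epithelial cells split. The ratios by class show these directions, and also how far single cells carry them.

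**Figure D1:**
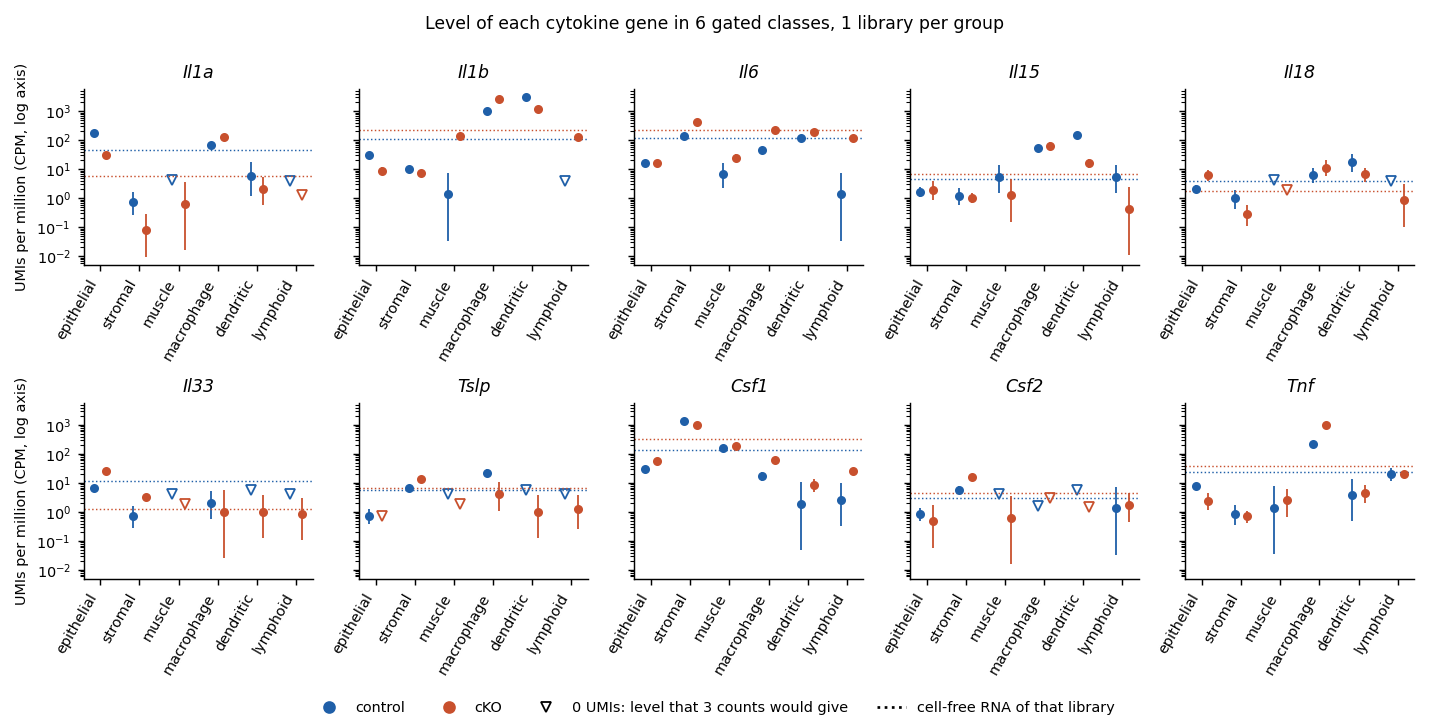
Level of each gene as CPM (log axis) in 6 gated classes, control in blue and cKO in orange, with 95% counting intervals. Open triangles mark 0 UMIs, at the level that 3 counts would give, and dotted lines give the level in cell-free RNA of each library. Csf1 lies highest in stroma, Tnf in macrophages and Il1b in macrophages and dendritic cells, in both libraries.

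A ratio was read for a gene and class with at least 20 UMIs in the 2 libraries together, and a difference of at least 2-fold was counted. Of 60 pairs of member and class, 35 reached 20 UMIs, and the other 25 were too sparse. Of these 35, 15 (42.9%) were at least 2-fold higher in cKO, against 14.1% of all gene and class pairs, and 7 (20%) at least 2-fold lower, against 5.89%. Both shares were above the background, for members chosen with earlier results of these data known. Of these pairs, 4 higher and 2 lower ones held under all 13 alternatives of the processing, and some rest on few cells. In stroma, 4 of 8 members were higher and 0 lower (background 5.97% and 6.88%), with a median log2 ratio of 0.37 against -0.03 for all genes. In macrophages, 4 of 8 were higher and 1 lower (background 10.6% and 4.63%; median 1.15 against 0.19). Dendritic cells went the other way: 0 of 4 members were higher and 3 lower (background 18% and 5.24%; median -1.40 against 0.27). Epithelial cells had 2 of 8 higher, near the background of 29.7%, and 3 lower (background 9.44%). In lymphoid cells 3 of 4 were higher and 0 lower (background 9.17% and 3.17%), and in muscle 2 of 3 were higher and 0 lower (background 8.43% and 3.63%). The cKO lymphoid gate also carried 476 against 1.35 CPM of B and plasma cell markers and 266 against 57.9 CPM of stromal markers. Their part in the lymphoid values was not tested. Over all cells of a library together, Il6, Tslp and Csf2 were at least 2-fold higher in cKO and Il1a and Il15 at least 2-fold lower, which is 3 and 2 of 10 (background 13.1% and 12.7%). Those values mix the level within a class with how many cells of the class were caught.

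**Figure D2:**
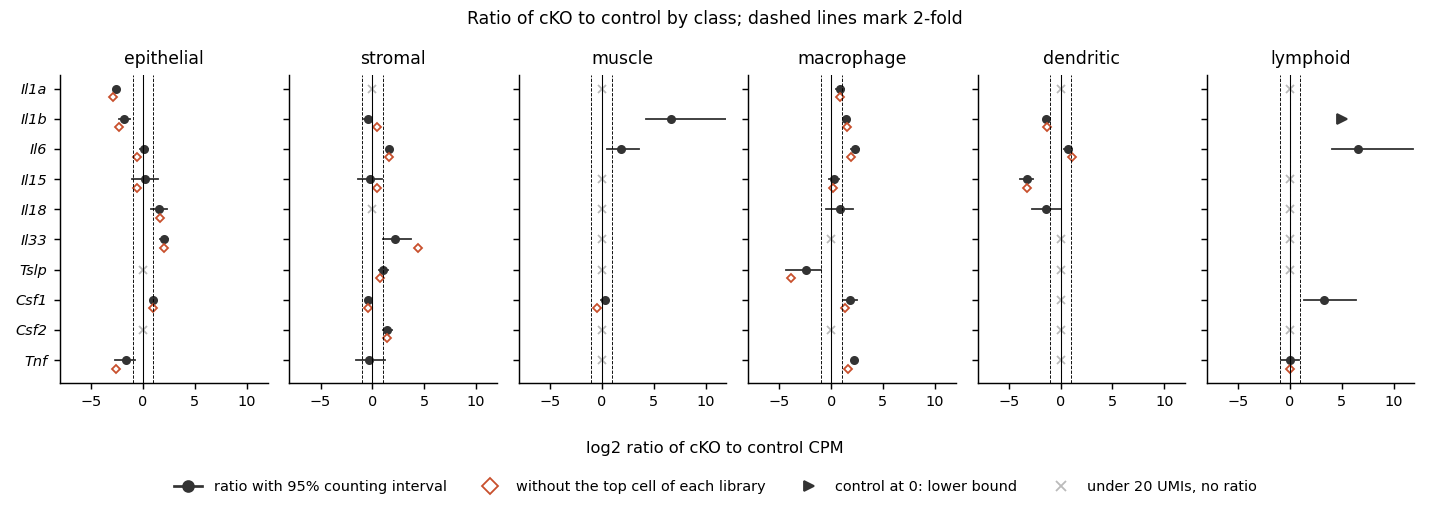
Log2 ratio of cKO to control CPM for each gene in each class, with 95% counting intervals drawn up to the axis ends and dashed lines at 2-fold. Open diamonds give the ratio without the 1 cell of each library that holds most UMIs of the gene, and crosses mark pairs under 20 UMIs. Il6 and Tnf in macrophages and Il6 in stroma stay above 2-fold without those cells, and the lymphoid values of Il1b, Il6 and Csf1 rest on few cells.

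Il1a (ENSMUSG00000027399, chr2:129299610-129309972) encodes the alarmin IL-1α. In control it was highest in epithelial cells, at 182 CPM (176 to 189), with UMIs in 379 of 961 (39.4%) cells, and macrophages followed at 70.5 CPM (59.1 to 83.6). In cKO the order of these classes was the reverse: macrophages had 126 CPM (105 to 150.1) and epithelial cells 30.7 CPM (25.5 to 36.6), in 16 of 135 (11.9%) cells. Il1a was thus 5.94-fold lower (4.96 to 7.16) in cKO epithelial cells and 1.78-fold higher (1.38 to 2.3) in cKO macrophages. Lymphoid cells had 0 UMIs in both libraries, which allows up to 4.04 CPM in control and 1.29 CPM in cKO. At an equal depth of 1000 UMIs per cell, an Il1a UMI was kept by 8.49% (6.8 to 10.4) of the control epithelium and by 0.741% (0.0188 to 4.06) of the cKO epithelium. Among cells with at least 3 epithelial markers the level was 184 CPM in control and 35 CPM in cKO, 5.25-fold lower. Cell-free RNA moved the same way, from 45.4 CPM in control to 5.69 CPM in cKO.

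Il1b (ENSMUSG00000027398, chr2:129364570-129371139), which lies near Il1a on chromosome 2, encodes IL-1β. Control dendritic cells had the highest level, 3069 CPM (2919 to 3224) in 35 of 42 cells, and cKO dendritic cells had 1183 CPM (1135 to 1232) in 82 of 134 cells, 2.59-fold lower (2.43 to 2.77). Macrophages went the opposite way, from 997 CPM (953 to 1043) in 68 of 228 cells to 2741 CPM (2638 to 2846) in 63 of 110 cells, 2.75-fold higher (2.59 to 2.92). Dendritic cells therefore led in control and macrophages in cKO, and in neither library did the intervals of these classes overlap. The cKO dendritic gate also carried more markers of other cells than control: 67.9 against 0 CPM of lymphoid (without Il2rb), 486 against 3.91 CPM of red cell, 353 against 182 CPM of mast cell and 287 against 95.8 CPM of stromal markers. Their part in the dendritic values of Il1b, Il15 and Il6 was not tested. Once thinned, 16.9% (12.2 to 22.4) of control macrophages had an Il1b UMI against 42.2% (32.8 to 52) in cKO, so that more cells as well as more UMIs per cell carried the difference. In dendritic cells the thinned shares were 59.5% (43.3 to 74.4) and 39.6% (31.2 to 48.4), with overlapping intervals. The share in stromal cells, which stands for background, was 11 of 623 in control and 43 of 1464 in cKO at median depths of 11763 and 15651 UMIs, against 7930.5 and 8102 UMIs in macrophages.

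Outside these classes Il1b came in few cells. Lymphoid cells had 0 UMIs in control and 303 in 10 of 427 cKO cells, at least 32.3-fold higher against 3 counts, but 1 cell held 54.8% of them. Muscle cells had 1 and 228 UMIs, the latter in 9 of 535 cells, a ratio of 105 (18.7 to 4166). Where a cell with several gate UMIs was counted in each of its classes, both differences were under 2-fold, with log2 ratios of 0.81 in muscle and 0.12 in lymphoid cells. Cells of the cKO lymphoid and muscle gates also carried 1112 and 1162 CPM of the dendritic marker list, against 119.8 and 538 CPM in control, and their part in these counts was not tested. Control epithelial cells had 30.6 CPM of Il1b and cKO epithelial cells 8.84 CPM, and 1 cell held 46.3% and 63.9% of the UMIs. In cells with at least 3 epithelial markers the levels were 16.2 and 1.68 CPM, 9.62-fold lower, whereas with cells weighted equally the epithelial difference was under 2-fold. A large part of Il1b lay outside the gates, 39.2% of its UMIs in control and 31.4% in cKO. Of these ungated UMIs, 3021 in control and 3550 in cKO were in cells with a UMI of Cd74, the invariant chain of antigen-presenting cells, and these splits of ungated cells were chosen after the values were seen. Ungated cells with Ccr7 had 2617 and 1104 CPM, and those with Lyz2, the macrophage lysozyme gene, 1798 and 4631 CPM. The lower value with Ccr7 and the higher value with Lyz2 in cKO have the same directions as in the gated dendritic cells and macrophages. Cell-free RNA held 109.8 and 217 CPM of Il1b, below these cells but above the epithelial, lymphoid and muscle levels of either library.

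Il33 (ENSMUSG00000024810, chr19:29925114-29960718) encodes the alarmin IL-33, which acts on ST2 (Il1rl1). It was low, and of the classes highest in epithelial cells: 6.63 CPM (5.47 to 7.96) in 48 of 961 (4.99%) control cells and 26.3 CPM (21.5 to 31.7) in 30 of 135 (22.2%) cKO cells, 3.96-fold higher (3.01 to 5.2). The direction is the opposite of that of Il1a in the same cells. Cell-free RNA held 12 CPM in control, more than the epithelial level, and 1.31 CPM in cKO, less than it. Lymphoid cells, at median depths of 4203 and 4504 UMIs, had an Il33 UMI in 0 of 155 control and 1 of 427 cKO cells. In cells with at least 3 epithelial markers the difference was 4.35-fold higher. The cKO epithelial gate also carried 315 against 20.3 CPM of mesothelial and 190 against 11.2 CPM of lymphatic markers. Their part in this difference was not tested. Median depth was 6302 UMIs in control and 14443 UMIs in cKO epithelial cells, and after thinning the shares with a UMI were 0.629% (0.231 to 1.36) and 1.48% (0.18 to 5.25), which overlap. Stromal cells had 6 UMIs in 2 of 623 control cells and 86 UMIs in 20 of 1464 cKO cells, 4.56-fold higher (2.01 to 12.8). One control cell held 83.3% of the control UMIs, and without the top cells 1 and 64 UMIs gave a ratio of 20.3 (3.52 to 815). Of all Il33 UMIs in cKO cells, 38.6% were in epithelial and 31% in stromal cells. Over all cells the levels of 5.17 and 5.24 CPM did not differ beyond counting error, with a ratio of 1.01 (0.839 to 1.22). Ungated control cells with Prox1, the lymphatic endothelial regulator, had 44 UMIs, of which 95.5% were in 1 cell.

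Il18 (ENSMUSG00000039217, chr9:50554827-50581840), which encodes IL-18, an inducer of interferon gamma in lymphocytes, was near the limit of detection. It had 102 UMIs in all control cells and 100 in all cKO cells. Epithelial cells had 2.08 CPM (1.45 to 2.87) and 6.14 CPM (3.97 to 9.06), 2.96-fold higher (1.7 to 5.06), from 36 and 25 UMIs, and 3.34-fold higher with 3 epithelial markers. After thinning, 1 control and no cKO epithelial cell kept a UMI, so the share of cells was not measurable at this depth. Dendritic cells had 9 and 13 UMIs, 2.63-fold lower (0.992 to 6.65), an interval that includes no difference, and 1 control cell held 66.7% of the UMIs. Of the classes and gated subsets examined, Il18 was highest in ungated cells with Upk3b, a mesothelial gene, at 72 CPM in control and 27.6 CPM in cKO. The epithelial gate carried 20.3 CPM of mesothelial markers in control and 315 CPM in cKO, and their part in epithelial Il18 was not tested.

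Tnf (ENSMUSG00000024401, chr17:35199381-35202007), which encodes the inflammatory cytokine TNF, was a macrophage transcript in both libraries. Control macrophages had 222 CPM (201 to 244) and cKO macrophages 1040.0 CPM (977 to 1106), 4.69-fold higher (4.18 to 5.27). The number of cells with a UMI differed less: 118 of 228 (51.8%) in control and 65 of 110 (59.1%) in cKO. A single cKO cell with 423 UMIs held 41.6% of the class's Tnf, and without the top cell of each library the levels were 209.9 and 629 CPM, a ratio of 3 (2.63 to 3.41). After thinning, 16.9% (12.2 to 22.4) and 31.2% (22.7 to 40.8) of cells had a UMI, with intervals that do not overlap, whereas at 500 UMIs per cell the shares were 11% (7.22 to 15.8) and 15.5% (9.27 to 23.6), which do. Ungated cells with Lyz2 did not show this difference, at 93.4 and 114 CPM, with 52.2% of the cKO UMIs in 1 cell. Lymphoid cells had 20.2 CPM (11.3 to 33.3) and 19.8 CPM (14.5 to 26.4), a ratio of 0.981 (0.538 to 1.89), and most of this lay in Cd3e-gated cells (14 of 15 and 46 of 46 UMIs). Epithelial cells had 7.73 CPM (6.47 to 9.15) in 89 of 961 control cells and 2.45 CPM (1.18 to 4.51) in 4 of 135 cKO cells, 3.15-fold lower (1.66 to 6.72). With 3 epithelial markers required this was 3.09-fold lower, and without the top cells 127 and 5 UMIs gave a ratio of 0.167 (0.0534 to 0.4). Both epithelial levels were below those of cell-free RNA, 24.4 and 39.4 CPM.

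Il6 (ENSMUSG00000025746, chr5:30013114-30019981) encodes IL-6, a cytokine of fibroblasts and macrophages that drives acute-phase and lymphocyte responses. Stromal cells had 145 CPM (137 to 154) in 125 of 623 (20.1%) control cells and 434 CPM (426 to 442) in 435 of 1464 (29.7%) cKO cells, 2.99-fold higher (2.81 to 3.18). After thinning, 7.34% (5.4 to 9.7) and 13.1% (11.4 to 14.9) of stromal cells kept a UMI, and these intervals do not overlap. The UMIs were spread unevenly: 12 control and 28 cKO cells held at least 50% of them, but the top cell held only 8.53% and 4.92%. Lymphoid cells, which give a background share, had a UMI in 1 of 155 control and 9 of 427 cKO cells at median depths of 4203 and 4504 UMIs, against 11763 and 15651 UMIs in stroma. Cell-free RNA held 120.2 CPM of Il6 in control and 221 CPM in cKO, below the stromal level of each library. Stromal cells with a UMI of Cxcl5, a neutrophil-attracting chemokine, had 424 CPM in control (59 cells) and 1036 CPM in cKO (234 cells). Those without had 102 and 298 CPM, so Il6 was higher in cKO on both sides of this split.

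Macrophages also had more Il6 in cKO, 46.7 CPM (37.4 to 57.5) against 228 CPM (199 to 260.0), 4.89-fold higher (3.8 to 6.33). Of the cKO UMIs 43% were in 1 of 110 cells, and without the top cells the ratio was 3.67 (2.71 to 5.01). These cKO macrophages also carried 318 CPM of 4 mast cell markers against 8.49 CPM in control, and 533 against 8.49 CPM of red cell markers, and their part in the macrophage values was not tested. Dendritic cells had 115 CPM (87.8 to 149) in 17 of 42 control cells and 188 CPM (169 to 209) in 70 of 134 cKO cells, 1.63-fold higher (1.24 to 2.19), in the direction opposite to Il1b in the same cells. Without the top cells the dendritic ratio of Il6 was 2.09 (1.5 to 2.98). Ungated cells with Ccr7 had the other direction, 236 CPM in control and 142 CPM in cKO. Unlike stroma, macrophages and dendritic cells had Il6 levels near or below those of cell-free RNA in both libraries. In control, stroma and dendritic cells did not differ in Il6 level beyond their intervals, whereas in cKO stroma was highest and macrophages and dendritic cells overlapped. Epithelial levels of 15.8 and 16.7 CPM did not differ beyond counting error, with a ratio of 1.06 (0.798 to 1.38), or 1.19-fold higher with 3 epithelial markers. One cKO epithelial cell held 45.6% of these UMIs, and without the top cells the levels were 13.8 and 9.17 CPM, a ratio of 0.666 (0.458 to 0.945), so the direction turned. Within control epithelium the 79 cells with a UMI of Ifnb1, the interferon beta gene, had 55.4 CPM of Il6 and the others 8.41 CPM, and no cKO epithelial cell had an Ifnb1 UMI. A further source was ungated cells with a UMI of Cpa3, a mast cell protease gene. They had 1183 CPM in 23 of 56 control cells and 550.3 CPM in 18 of 44 cKO cells. The cKO lymphoid value, 286 UMIs against 1 in control, rested on 1 cell that held 89.2% of it. The cKO muscle value, 39 UMIs against 5 and 3.59-fold higher (1.41 to 11.7), likewise had 74.4% in 1 cell, and without the top cells fewer than 20 UMIs were left. After subtraction of cell-free RNA no Il6 UMI was left in muscle of either library.

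Il15 (ENSMUSG00000031712, chr8:82331632-82403222), which encodes the growth factor of natural killer cells IL-15, differed most among the members read in dendritic cells. Control dendritic cells had 154 CPM (122 to 192) in 21 of 42 (50%) cells and cKO dendritic cells 16.5 CPM (11.3 to 23.2) in 22 of 134 (16.4%) cells, 9.38-fold lower (6.15 to 14.6), from 79 and 32 UMIs. Few UMIs were left after thinning: 7.14% (1.5 to 19.5) of control dendritic cells and 2.99% (0.819 to 7.47) of those of cKO had one, with overlapping intervals, and the log2 ratio of -1.26 came from fewer than 20 UMIs. Macrophages did not differ beyond counting error: 54.1 CPM (44.1 to 65.7) in 40 of 228 control and 65.4 CPM (50.4 to 83.6) in 16 of 110 cKO cells, a ratio of 1.21 (0.871 to 1.67). Dendritic cells were thus first in control and macrophages first in cKO. Ungated cells with Ccr7 had 112 CPM in control from 89 UMIs and 3.35 CPM in cKO from 3 UMIs. Ungated cells with Lyz2 were also lower in cKO, unlike the gated macrophages, with 32 UMIs at 62.3 CPM in control and 2 UMIs at 3.39 CPM in cKO. Epithelial and stromal cells were low in both libraries, between 1.02 and 1.96 CPM, below cell-free RNA at 4.65 and 7 CPM. The epithelial ratio of 1.17 (0.464 to 2.63) turned with the cells taken, to 2.7-fold lower with 3 epithelial markers (1.51 and 0.56 CPM) and to 0.656 (0.166 to 1.89) without the top cells. Genes of the interferon response were lower together with Il15: of 14 such genes, 12 were at least 2-fold lower in cKO dendritic cells and their summed level was 8587 CPM in control and 1052 CPM in cKO (background 5.24% lower). In macrophages 7 of 14 were lower, with sums of 12819.8 and 5644 CPM (background 4.63% lower). Their part in the Il15 values was not tested.

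Tslp (ENSMUSG00000024379, on chromosome 18) encodes thymic stromal lymphopoietin. Among the 6 classes it was highest in macrophages in control, 22.3 CPM (16.1 to 30.1) in 25 of 228 cells, and in stroma in cKO, 13.7 CPM (12.3 to 15.2) in 101 of 1464 (6.9%) cells. Ungated control cells with Prox1 had 102 CPM, with 94.6% of 37 UMIs in 1 cell. Control stroma had 6.56 CPM (4.92 to 8.59) in 43 of 623 (6.9%) cells, so stromal Tslp was 2.09-fold higher (1.56 to 2.84) in cKO. At an equal depth of 1000 UMIs per cell, a Tslp UMI was kept by 0.163% (0.00413 to 0.906) of the control stroma and by 0.619% (0.284 to 1.17) of the cKO stroma, with overlapping intervals. One cKO stromal cell held 24.4% of the UMIs, and without the top cells the ratio was 1.7 (1.25 to 2.36), under 2-fold. Macrophages of cKO had 4.09 CPM (1.11 to 10.5) from 4 UMIs, 5.45-fold lower (1.98 to 20.9). In control 1 macrophage held 33.3% of 42 UMIs, and without the top cells 28 and 1 UMIs were left, a ratio of 0.0694 (0.0017 to 0.42). With gates that may overlap the log2 ratio in macrophages was -0.78, under 2-fold. Cell-free RNA held 5.82 and 6.56 CPM of Tslp, near the level of control stroma and above that of cKO macrophages. Muscle had no Tslp UMI in either library, which allows up to 4.09 CPM in control and 1.88 CPM in cKO.

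Csf1 (ENSMUSG00000014599, chr3:107741048-107760469), which encodes the main growth factor of macrophages, was detected in most stromal cells. Stromal cells had 1329.5 CPM (1304 to 1355) in 503 of 623 (80.7%) control cells and 991 CPM (979 to 1004) in 1243 of 1464 (84.9%) cKO cells, 1.34-fold lower (1.31 to 1.37). This difference is outside counting error but well under 2-fold, and its direction is opposite to that of Il6 in the same cells. After thinning, 48.6% (44.6 to 52.7) and 42.8% (40.2 to 45.4) of stromal cells had a UMI, with overlapping intervals. The UMIs were spread over many cells, 72 control and 158 cKO cells holding at least 50% of them. Lymphoid cells, which give the background, had a UMI in 2 of 155 control and 12 of 427 cKO cells at median depths of 4203 and 4504 UMIs. Muscle was second at 161 CPM (133 to 193) and 193 CPM (172 to 216), a ratio of 1.2 (0.969 to 1.5). This value rested on 1 cKO muscle cell with 62% of the UMIs. Without the top cells the levels were 105 and 74.2 CPM, a ratio of 0.707 (0.525 to 0.957), and in cells with 3 muscle markers 164 and 72.3 CPM, 2.27-fold lower, so muscle Csf1 has no settled direction. Epithelial cells had 30.3 CPM (27.8 to 33) and 58.9 CPM (51.7 to 66.8), 1.94-fold higher (1.66 to 2.27), and with 3 epithelial markers 2-fold higher. All of these epithelial levels are under the 139.6 and 331 CPM of cell-free RNA, which was estimated to make up 3.25% of control and 6.23% of cKO epithelial UMIs. Macrophages had 17.5 CPM (12 to 24.6) and 60.3 CPM (45.9 to 77.8), 3.45-fold higher (2.21 to 5.45), from 33 and 59 UMIs, also under cell-free RNA. A single cKO macrophage held 37.3% of the UMIs, and without the top cells the ratio was 2.55 (1.52 to 4.32). The cKO lymphoid value, 61 UMIs against 2, had 70.5% in 1 cell.

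Csf2 (ENSMUSG00000018916, chr11:54247271-54249667) encodes GM-CSF, which activates granulocytes, macrophages and dendritic cells. It was found in few cells. Stromal cells had 5.7 CPM (4.17 to 7.6) from 46 UMIs in 4 of 623 control cells and 15.6 CPM (14.1 to 17.2) from 395 UMIs in 8 of 1464 cKO cells, 2.73-fold higher (2.01 to 3.79). One cell held 69.6% of the control and 70.6% of the cKO UMIs. The number of cells therefore limits this comparison, and 0.642% of control and 0.546% of cKO stromal cells had a UMI. In lymphoid cells, another known source of Csf2, there were 1 and 4 UMIs. All 8 cKO stromal cells with Csf2 also had Il6. Macrophages and dendritic cells had 0 UMIs in both libraries, which allows up to 1.59 and 3.07 CPM in macrophages and 5.86 and 1.54 CPM in dendritic cells.

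The share of each member's UMIs by class adds how many cells of a class were caught to the level within it. Epithelial cells held 88.2% of Il1a in control and 25.9% in cKO, while they were 26.3% and 2.73% of cells. Stroma held 75.3% and 77.8% of Csf1, a nearly equal share, and 44.1% and 61.8% of Il6. Macrophages held 50.9% of Tnf in control and 72.5% in cKO, although their share of cells was 6.24% in control and 2.22% in cKO. For Il1b the gated macrophages held 24.1% and 22.8% and the gated dendritic cells 20.1% and 19.6%. For Csf2 the stroma held 49.5% in control and 87.4% in cKO. Cells with several gate UMIs held up to 26.5% of a member's UMIs (Tslp in cKO) and are left out of the class values. Dissociation and capture can set these cell shares, and this was not tested.

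**Figure D3:**
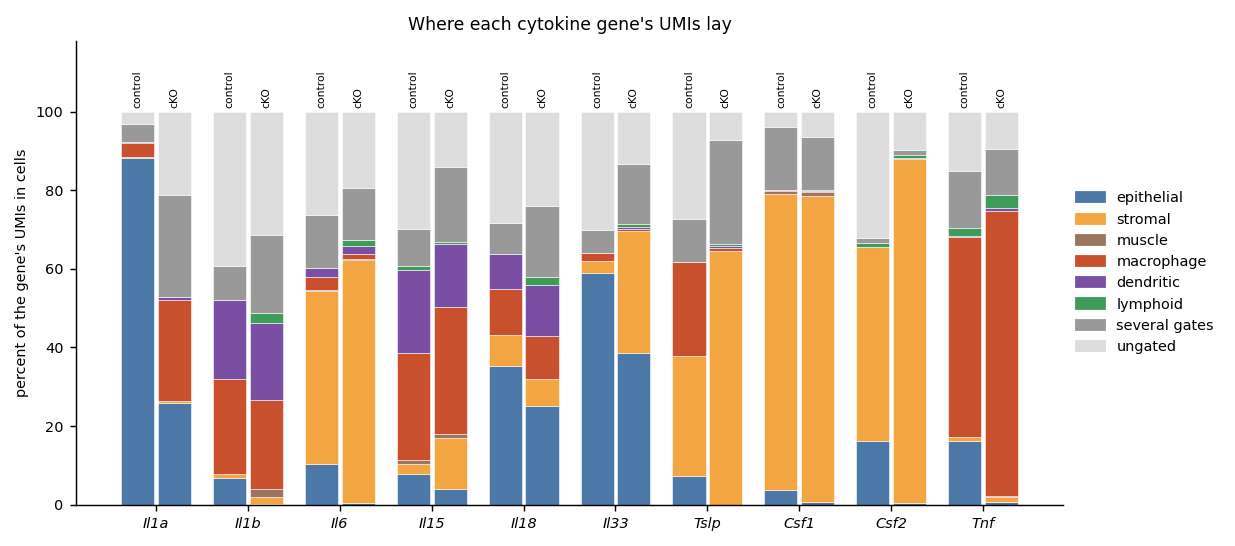
Percent of each gene's UMIs in cells that lay in each gated class, in cells with gate UMIs of several classes and in ungated cells, for control and cKO. Epithelial cells hold most Il1a in control but not in cKO, and stroma holds most Csf1 in both.

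Members were found together in some cells and not in others. In macrophages Il1b and Il1a went together: 23 of 38 control cells with Il1a also had Il1b, 60.5% (43.4 to 76), against 45 of 190 without Il1a (23.7%). In cKO these were 18 of 21 and 45 of 89. Tnf was spread evenly over macrophages with and without Il1b in control, 35 of 68 and 83 of 160 cells, and in cKO it was 39 of 63 and 26 of 47. In stroma Tslp was found in 21 of 125 control cells with Il6 and 22 of 498 without, and in cKO in 75 of 435 and 26 of 1029. In dendritic cells of cKO Il6 was found in 54 of 82 cells with Il1b and 16 of 52 without, and in control all 17 cells with Il6 also had Il1b. Cells with a member were deeper in most of these sets (in control macrophages 9738 UMIs with and 6599 without Il1b, at the median), and the part of depth was not tested. At least 3 members were detected in 18.9% of control and 32.7% of cKO macrophages, at similar median depths of 7930.5 and 8102 UMIs. Dendritic cells went the other way, with 28.6% and 14.2% at median depths of 11509.5 and 14023 UMIs. Epithelial (9.05% and 16.3%) and stromal cells (4.01% and 7.45%) were higher in cKO, where they were also deeper.

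Receptors of these ligands were found in every class. Of 18 receptor genes listed, those at least 2-fold apart in cKO numbered 8 higher and 0 lower of 18 read in epithelial cells (background 29.7% and 9.44%) and 7 higher and 0 lower of 14 in muscle (background 8.43% and 3.63%). In stroma they numbered 1 higher and 4 lower of 18 (background 5.97% and 6.88%), and in macrophages 4 higher and 0 lower of 16 (background 10.6% and 4.63%). Dendritic cells had 3 higher and 0 lower of 14 (background 18% and 5.24%) and lymphoid cells 4 higher and 2 lower of 17 (background 9.17% and 3.17%). The list's median log2 ratio was 0.91 in epithelial cells, 0.99 in muscle, -0.27 in stroma and 0.35 in macrophages, beside 0.47, 0.11, -0.03 and 0.19 for all genes read. The cKO muscle gate also carried 1162 against 538 CPM of dendritic and 1178 against 53.2 CPM of red cell markers. Its Il2rb was at 234 against 47.7 CPM, beside 32.6 against 12.3 CPM of the 7 other lymphoid markers. Cell-free RNA was estimated at 20.2% of cKO and 7.26% of control muscle UMIs. The part of these in the muscle receptor count was not tested. Csf1r, the receptor of the stromal ligand Csf1, was at 418 CPM in control and 364 CPM in cKO macrophages. Il1r1, the signalling receptor of IL-1α and IL-1β, was at 137 and 116 CPM in stroma and 68.7 and 119 CPM in lymphoid cells. The common beta chain of GM-CSF receptors, Csf2rb, was highest in dendritic cells (1360.4 and 1069 CPM), although Csf2 itself was found in so few cells.

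Tnfrsf1b, a TNF receptor of leukocytes, was at 795 and 839.6 CPM in macrophages, the class that also held Tnf. Il6ra and Il6st, the subunits of the IL-6 receptor, were both highest in stroma (142 and 161 CPM, and 292 and 289 CPM). Il2rb, the chain through which lymphocytes sense IL-15, was at 1149 and 1592 CPM in lymphoid cells, while Il15ra, which presents it, was highest in dendritic cells at 60.6 and 49.9 CPM. Both chains were within 2-fold between groups in these classes, while dendritic Il15 was lower in cKO. Il2rb was also found in cKO dendritic cells (653 UMIs against 0), at 336 CPM, where the 7 other lymphoid markers summed to 67.9 CPM in cKO and 0 in control. In cKO epithelial cells Il2rb was 23.7-fold higher (20.3 to 27.9), at 249 CPM against 10.5 CPM in control, and the 7 other markers summed there to 28.5 and 2.83 CPM. The part of lymphoid cells in these values was not tested. The receptor of IL-33, Il1rl1, was 2.04-fold lower (1.95 to 2.15) in cKO stroma (343 and 168 CPM) and 2.49-fold lower (1.63 to 3.78) in lymphoid cells. In macrophages it was 16.9-fold higher (8.48 to 38.4), together with 318 CPM of mast cell markers against 8.49 in control. Il18r1 was a lymphoid gene at 308 and 328 CPM, and Crlf2, the TSLP receptor chain, was also highest there at 47.1 and 52.1 CPM.

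**Figure D4:**
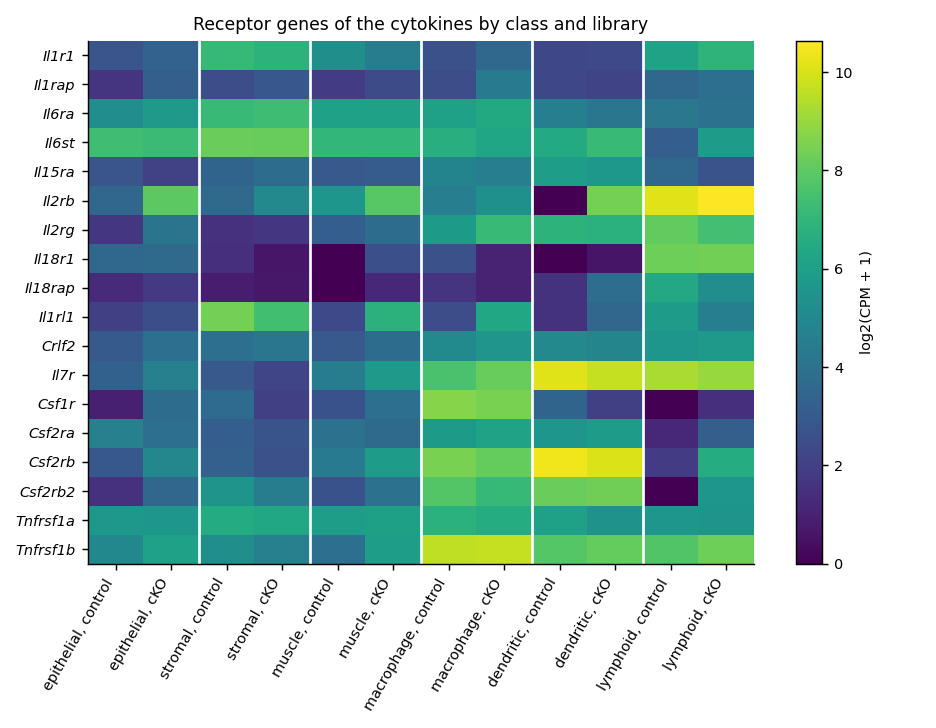
Level of 18 receptor genes as log2(CPM + 1) in the 6 classes, control and cKO side by side. Csf1r and Tnfrsf1b are highest in macrophages, Csf2rb in dendritic cells and Il2rb in lymphoid cells, in both libraries.

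Inhibitors and processing genes of the same cytokines differed in a few classes. Il1rn, the IL-1 receptor antagonist, was at 4374 and 3761 CPM in macrophages, within 2-fold where Il1b was higher, and was 2.02-fold lower (1.67 to 2.43) in cKO dendritic cells and 5.15-fold lower (3.76 to 7.1) in cKO stroma. The decoy receptor Il1r2 was 5.64-fold higher (4.01 to 8.17) in cKO stroma (4.33 and 24.4 CPM). Nlrp3, the inflammasome sensor, was within 2-fold in macrophages (633 and 939.8 CPM). In dendritic cells the list had 4 of 14 genes at least 2-fold lower and 0 higher (background 5.24% and 18%). Besides Il1rn these were the inflammasome caspases Casp4, 3.8-fold lower (2.95 to 4.89), and Casp1, 3.59-fold lower (2.2 to 5.87), and the cytokine signalling inhibitor Socs3, 3.17-fold lower (2.03 to 4.92). Il18bp, which neutralises IL-18, was 2.19-fold lower (1.47 to 3.36) in cKO macrophages, the 1 gene of 13 that was lower there, with 0 higher (background 10.6% and 4.63%). The list had 1 higher and 3 lower of 12 in epithelial cells (background 29.7% and 9.44%), 2 higher and 1 lower of 14 in stroma (background 5.97% and 6.88%), 3 higher and 0 lower of 9 in muscle (background 8.43% and 3.63%) and 2 higher and 1 lower of 11 in lymphoid cells (background 9.17% and 3.17%).

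Of 18 other leukocyte ligands, between 4 (dendritic cells) and 10 (epithelial and stromal cells) reached 20 UMIs in a class. In stroma, 1 higher and 5 lower of 10 were at least 2-fold apart (background 5.97% and 6.88%). Il11, an IL-6 family member, was 2.14-fold higher (1.99 to 2.3) beside Il6, while Kitl, the mast cell growth factor, was 2.83-fold lower (2.62 to 3.06) and Flt3l, which supports dendritic cells, 5.46-fold lower (3.02 to 10.2). Stromal ligands thus differed in both directions. Il12b, the shared subunit of IL-12 and IL-23, was 3.66-fold higher (2.37 to 5.93) in cKO dendritic cells, where Il15 and Il1b were lower, and had 41 UMIs in cKO and 0 in control macrophages. Il17a was 12.4-fold higher (4.13 to 60.9) in cKO lymphoid cells, from 3 and 116 UMIs. Macrophages had 2 higher and 2 lower of 7 (background 10.6% and 4.63%), dendritic cells 3 higher and 0 lower of 4 (background 18% and 5.24%), lymphoid cells 4 higher and 0 lower of 8 (background 9.17% and 3.17%) and muscle 0 higher and 0 lower of 5 (background 8.43% and 3.63%). In epithelial cells 7 higher and 3 lower of 10 were at least 2-fold apart (background 29.7% and 9.44%). Those higher included the anti-inflammatory cytokine Il10, 74.9-fold higher (30.9 to 236), from 5 and 88 UMIs, Il11, 8.15-fold higher (5.34 to 12.6), and Kitl, 4.65-fold higher (3.92 to 5.51). Those lower were Lif, a cytokine needed for implantation, 3.44-fold lower (2.85 to 4.19), the granulocyte growth factor Csf3, 2.17-fold lower (1.75 to 2.71), and Il23a, the specific subunit of IL-23, 2.33-fold lower (1.39 to 4.18). The cells of other types in the cKO epithelial gate were not removed from these values.

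The tissue was digested with collagenase for 5 hours, and 17 genes known to be induced by dissociation were followed beside the members. In cKO macrophages 5 were at least 2-fold higher, 1 lower and 11 within 2-fold (background 10.6% and 4.63%), and their summed level was 8534 CPM in control and 14997 CPM in cKO. Of the heat shock genes, Hspa1a was 6.42-fold higher (5.83 to 7.08) and Hspa1b 4.95-fold higher (4.64 to 5.29). In stroma the sum was 6099 and 6922 CPM and 1 of 17 was higher, with 0 lower (background 5.97% and 6.88%). In lymphoid cells 8 were higher and 0 lower (background 9.17% and 3.17%), with sums of 2261 and 3812 CPM. In dendritic cells 4 were higher and 1 lower (background 18% and 5.24%), in muscle 1 and 4 (background 8.43% and 3.63%), and in epithelial cells 0 and 3 (background 29.7% and 9.44%). The part of dissociation in the members' values was not tested. Of the interferon response genes read, those at least 2-fold lower in cKO numbered 13 of 14 in epithelial cells (background 9.44%), 12 of 14 in stroma (background 6.88%), 9 of 11 in muscle (background 3.63%) and 12 of 13 in lymphoid cells (background 3.17%), beside the 12 in dendritic cells and 7 in macrophages given above. None was at least 2-fold higher in a class.

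The pattern of each member over the 12 values of 6 classes and 2 libraries was compared with that of 10920 genes, as a description: the 12 values share libraries and class sizes, and no shared function follows from likeness. The values in brackets are Pearson correlations of log2(CPM + 1). Il1a was nearest to Blnk (0.97), Carmil1 (0.94) and Rapgef5 (0.94), Il1b to Plbd1 (0.95), Flrt3 (0.95) and Pla2g7 (0.94), Tnf to Aoah (0.95), Arap1 (0.94) and Nhlrc3 (0.94) and Il15 to Ms4a4c (0.96), Bcl3 (0.95) and Adap2 (0.93). Csf1 was nearest to Poglut2 (0.98), Lox (0.97) and Ddr2 (0.97), of which Lox encodes a collagen cross-linking enzyme and Ddr2 a collagen receptor. Il6 was nearest to Nrg1 (0.93), Oaf (0.87) and Chst14 (0.84), of which Nrg1 encodes neuregulin. Tslp was nearest to Saa3 (0.94), Ptges (0.93) and Cmklr1 (0.91), of which Saa3 encodes an acute-phase protein and Ptges a prostaglandin E synthase. Il33 was nearest to Esyt3 (0.92), Cadm4 (0.92) and Scnn1a (0.90), of which Scnn1a encodes an epithelial sodium channel subunit. For Il18 the nearest were Gpr137b (0.93), Abcc4 (0.92) and Ppfibp2 (0.92), and for Csf2 Sncaip (0.94), Rxfp2 (0.94) and Arsg (0.93), both from few UMIs.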

How the data were processed

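Single-cell suspensions of digested uteri, pooled from 3 mice per group, gave 1 droplet library each. The authors deposited unfiltered UMI counts per gene and barcode. Per the file headers they were written by Cell Ranger 4 software, and per the submitters' processing notes Cell Ranger 6.1.1 and build mm10 were used. Which version made the counts is not given in the sources used here.

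From the deposited counts, cells were taken at 500 genes and 20% mitochondrial UMIs, which gave median depths of 4650 UMIs in control and 5944 in cKO. Classes were gated by marker UMIs, UMIs were summed per class and scaled to CPM, and exact Poisson, Clopper-Pearson and conditional binomial 95% intervals were computed with SciPy 1.17.1 and NumPy 2.4.6. A count of 0 was read as allowing 3 counts. The ratio, its interval and the call were run on simulated counts of the stromal class that were not clumped by cell. Member counts were often clumped in single cells, so this does not show how the intervals hold for them. Gating, thinning and subtraction of cell-free RNA were not simulated. Cell-free RNA was taken from barcodes with at most 100 UMIs. The share of a class's UMIs that it made up was estimated from the markers of the other classes. For control and cKO this gave 3.25% and 6.23% in epithelial, 6.17% and 2.8% in stromal, and 7.26% and 20.2% in muscle cells. Macrophages had 8.83% and 5.61%, dendritic cells 1.46% and 4.2%, and lymphoid cells 1.46% and 3.45%. A class level below that of cell-free RNA therefore does not give the cell-free part of that level. Automatic doublet calling marked 3 control and 0 cKO cells and was not used. Cells with gate UMIs of several classes were left out, and removal of cells with a doublet score over 0.25 was an alternative. Further alternatives were gates that may overlap, 2 gate UMIs, 300 or 1000 genes, 10% mitochondrial UMIs, cells weighted equally, TMM scaling of class totals (edgeR 4.0.16 in R 4.3.3), thinning to 1000 or 500 UMIs, subtraction of cell-free RNA and removal of the cell with most UMIs of a gene. Gene positions are those of build mm10.

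The members, gene lists and splits were chosen with earlier results of these data known. All 10 members are described. Of the receptor, inhibitor and other ligand lists, the class with the highest level of a gene and at most 3 genes per class and direction are named, ranked by the interval limit nearer to 1. Il1rn in dendritic cells, Hspa1a and Hspa1b were named after their values were seen. The nearest patterns are the 3 genes with the highest Pearson correlation for each member.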

Additional observations from a re-analysis of the deposited data

Results flagged for a closer look

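Some members differed between control and cKO in opposite directions in 2 classes, each by at least 2-fold. These differences between classes were not tested, since each group had 1 library. The log2 ratio of Il1b in macrophages exceeded that in epithelial cells by 3.25 and that in dendritic cells by 2.83. The muscle ratio of Il1b, from 1 control UMI, exceeded the epithelial one by 8.51 and the dendritic one by 8.09. For Tslp the stromal ratio exceeded the macrophage ratio by 3.51, and for Tnf the macrophage ratio exceeded the epithelial ratio by 3.88.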

How the results depend on the processing

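No paired analysis was possible because each group had 1 library. Of the 15 pairs of member and class that were at least 2-fold higher and the 7 that were lower in cKO, 4 and 2 held under all 13 alternatives: Il1b, Il6 and Tnf in macrophages and Il6 in stroma (higher), and Il1a in epithelial and Il1b in dendritic cells (lower). Thinning every cell to 1000 UMIs gave 6 higher and 2 lower pairs and kept 6 of the 22 calls, since 14 then had fewer than 20 UMIs. Il18 in dendritic cells reversed to a log2 ratio of 0.43 with 2 gate UMIs and 0.65 after thinning, and Csf1 in lymphoid cells to -0.15 after thinning. With cells weighted equally, 17 of the 22 calls were kept: the epithelial difference of Il1b, muscle Il6, dendritic Il18, stromal Tslp and stromal Csf2 were under 2-fold. With gates that may overlap, 17 were kept, and Il1b in muscle and lymphoid cells, Tslp in macrophages, Csf1 in lymphoid cells and Il18 in dendritic cells were under 2-fold. Removing the top cell kept 18, and TMM scaling 21, losing Il18 in epithelial cells. Subtraction of cell-free RNA kept all 21 calls that then had a value, and left no UMI of Il6 in muscle. Requiring 3 class markers and leaving out the shared barcodes, both chosen after seeing the data, kept all 22. The cause of each lost call was not tested. Counts under 20 UMIs limit Il18, Csf2 and most lymphoid and muscle values.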
